A study of Arabidopsis thaliana with 29 samples.

Results

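PP7L (AT5G10900), PP7 (AT5G63870), MAIN (AT1G17930) and MAIL1 (AT2G25010) are 4 nuclear genes of Arabidopsis thaliana, and they were chosen by name, as 4 of the 33681 loci with a level in these RNA-seq libraries. PP7L is the gene for which the mutant in the study is named. Whole plants of the wild-type ecotype Col0 and of the mutant pp7l were sequenced at the start and after 6, 9, 12 and 15 days without water (written 0, 6, 9, 12 and 15 D), which gave 10 groups. Each group held 3 libraries, except Col0 at 6 D with 2, replicates 1 and 3, for 29 libraries in all. Every plant had the Col-0 background, was moved as a 7-day-old seedling to soil, and was 3 weeks old at 0 D. All plants grew under 16 h of light at 100 µE and 8 h of dark, at 22 °C. The study's text gives the allele as pp7l-1 and the sample labels give it as pp7l-2, so the mutant is called pp7l here, and no label gives the kind of lesion. No watered plants of the later ages were labelled, so lack of water and age cannot be told apart in any change over days. The headers of the values mark each replicate as brep, without explaining the term. The labels do not say whether replicates were separate plants or pots, so the p-values measure the spread between these libraries, which may be technical.

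PP7 and PP7L belong to the phosphoprotein phosphatase family, enzymes that remove phosphate groups from serine and threonine residues. PP7 is a nuclear phosphatase known as a positive regulator of blue light signalling through cryptochromes. PP7L is a nuclear protein of the same branch, and mutants that lack it are known for defects in chloroplast development. MAIN (MAINTENANCE OF MERISTEMS) and its homologue MAIL1 are nuclear proteins with a plant mobile domain, a domain shared with transposable elements. Mutants of MAIN or MAIL1 have disturbed meristems, and both proteins, together with PP7L, are known to keep transposable elements silent. MAIL2 and MAIL3 are further relatives, and the reference annotation calls MAIL3 a long form of phosphatase 7.

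Levels were given as TPM, in which each gene's reads are divided by its length and all genes of a library add up to the same total. A TPM value is therefore a share. Plastid transcripts took from 13.7% to 86.7% of the TPM of a library, and nuclear rRNA took 25.0% in Col0 at 12 D replicate 3, and 27.5%, 0.110% and 61.2% in the 3 Col0 libraries at 15 D. A single other locus, AT1G15405, took 14.3%, 46.0% and 16.9% in those 15 D libraries. In the Col0 libraries at 0 D it took 3.34%, 3.72% and 3.57%. A level that falls in TPM in such a library may be a smaller share of a changed total, so each result below is given also as scaled TPM, the TPM divided by a factor per library that sets the median ratio over 15623 loci to 1 (median-of-ratios scaling). These factors ran from 0.161 in Col0 at 15 D replicate 3 to 1.85 in Col0 at 12 D replicate 2. Col0 at 6 D replicate 1 stood apart from replicate 3, with 86.7% against 67.1% plastid TPM and a factor of 0.351 against 1.21. Fewer cells of a type and less RNA per cell cannot be told apart in whole plants. The files hold no read counts, so the depth behind each value is unknown. Differences were tested on log2(TPM + 1) with limma over 18757 loci, those with at least 1 TPM in at least 3 libraries, and a call means a Benjamini-Hochberg adjusted p under 0.05. On this scale the change of a gene near or below 1 TPM is understated.

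All 4 genes were low to moderate in level, and none was at 0 in any library. PP7 had the highest level of the 4 genes in 28 of the 29 libraries, with a median of 7.09 TPM and a range from 0.513 to 11.9 TPM. In Col0 at 6 D replicate 1, MAIL1 was the highest instead. MAIL1 had a median of 3.11 TPM and lay above MAIN in all 29 libraries. MAIN had a median of 0.995 TPM and PP7L one of 0.758 TPM. PP7L was the lowest of the 4 genes in 21 libraries and MAIN in the other 8, so these neighbours changed places between libraries. All 4 passed the filter on low values, PP7L with 9 libraries at 1 TPM or more, MAIN with 14, and PP7 and MAIL1 with 27 each. Ranked among all nuclear loci of the same library, which does not depend on the total, PP7 at 0 D stood at the 79.4th to 82.9th percentile and PP7L at the 31.0th to 43.8th.

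PP7L, the gene named in the mutant, had a higher level in the libraries labelled pp7l than in those of Col0. In Col0 its level was 0.0863, 0.271 and 0.244 TPM at 0 D, and 0.153 and 0.825 TPM in replicates 1 and 3 at 6 D. It was 1.06, 1.08 and 0.947 TPM at 9 D, 0.584, 0.0893 and 0.334 TPM at 12 D, and 0.156, 0.114 and 0.0440 TPM at 15 D. In TPM the 3 highest Col0 levels were those at 9 D, and the lowest mean was at 15 D. After scaling the lowest mean was at 12 D, and 6 D replicate 3, at 0.680 scaled TPM, lay above 9 D replicates 1 and 3, at 0.671 and 0.634. In the libraries labelled pp7l its level was 0.375, 0.672 and 0.712 TPM at 0 D, and 0.924, 0.924 and 0.789 TPM at 6 D. At 9 D it was 1.36, 0.758 and 2.62 TPM, at 12 D 1.43, 1.22 and 1.27 TPM, and at 15 D 0.707, 1.03 and 1.60 TPM. In TPM the groups did not overlap at 0, 12 and 15 D, and every library labelled pp7l then lay above every Col0 library of that day. At 6 and 9 D they overlapped, and after scaling they overlapped at 0 D too. The share of all loci without overlap was not counted, for this gene or for those below. At 15 D 77.5% of all loci tested were called higher in pp7l in TPM, with a median log2 difference of 1.27. The shares called higher in TPM were 18.8% at 0 D and 17.2% at 12 D.

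The mean difference over days was 0.661 TPM, higher in the libraries labelled pp7l, with p = 3.625e-05 in an exact two-sided permutation test over all 1600000 arrangements of the genotype labels within days. In the 29 repeats that each left out 1 library the difference ran from 0.557 to 0.743 TPM, and the highest exact p was 0.000164. The limma fit gave a log2 difference of 0.55 ± 0.09 (SE) averaged over days (adjusted p = 1.30e-05, limma). After scaling it was 0.38 ± 0.07 (adjusted p = 7.52e-05, limma). At 12 D the mean was 1.31 ± 0.113 TPM (SD, n = 3) in pp7l and 0.336 ± 0.247 TPM (SD, n = 3) in Col0, 3.89-fold as high. This log2 difference of 0.80 ± 0.21 passed the test (adjusted p = 0.00252, limma), and it did after scaling (0.67, adjusted p = 0.000988, limma). At 15 D the means were 1.11 ± 0.452 and 0.105 ± 0.0565 TPM (SD, n = 3 each), 10.6-fold apart in TPM and 2.58-fold after scaling. The log2 difference was 0.92 ± 0.21 (adjusted p = 0.000241, limma) and 0.40 after scaling (adjusted p = 0.0282, limma). The differences at 0, 6 and 9 D did not pass, with adjusted p-values of 0.177, 0.204 and 0.415 (limma). With the compared groups fitted alone, that at 0 D passed (adjusted p = 0.0334, limma). Without Col0 6 D replicate 3, the difference at 6 D passed (0.70, adjusted p = 0.0233, limma). The table has 1 value per gene and does not show which part of PP7L was transcribed, so its level does not check the allele or the label.

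**Figure D1:**
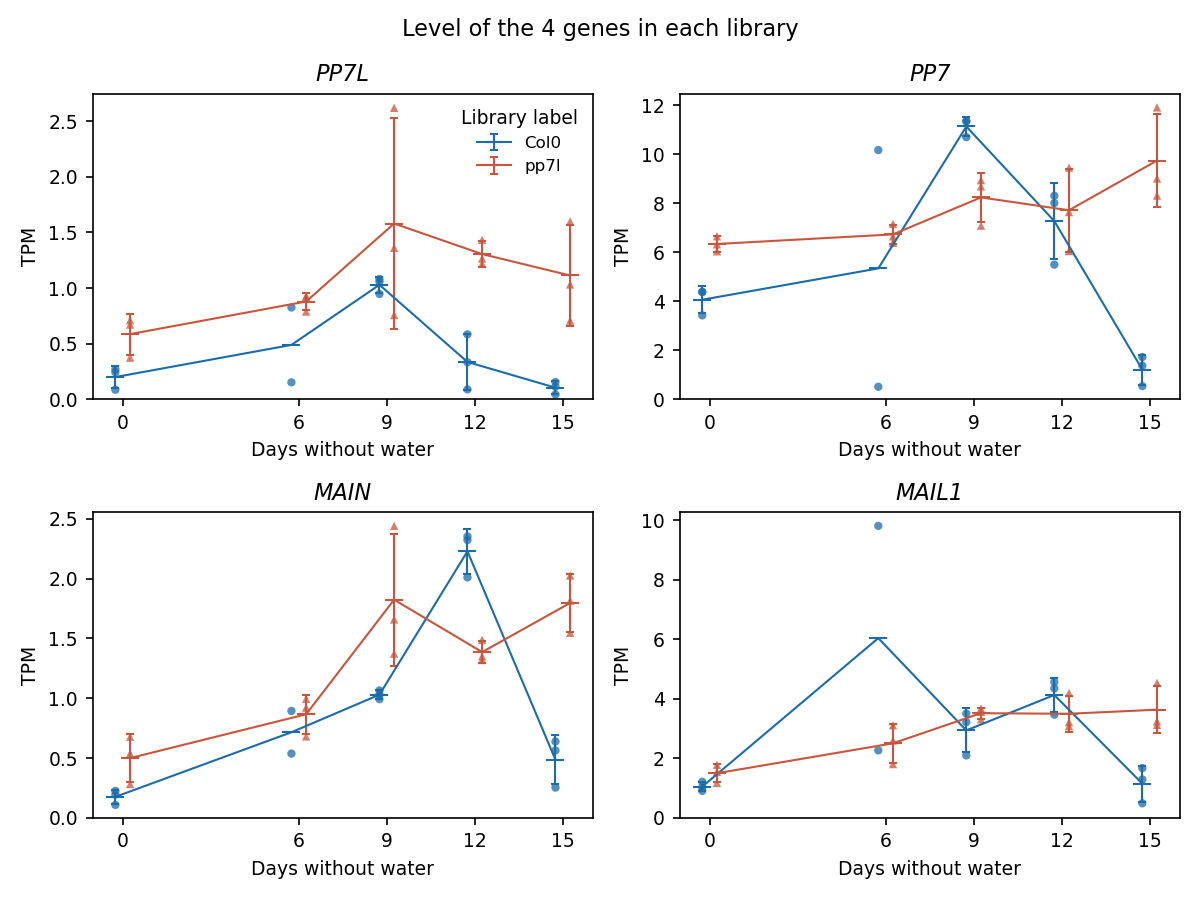
TPM (vertical axis) of PP7L, PP7, MAIN and MAIL1 in each library against days without water (horizontal axis); circles are Col0 libraries and triangles pp7l libraries, lines join group means and bars give the SD where a group has 3 libraries. PP7L is higher in every pp7l library than in any Col0 library at 0, 12 and 15 D, and in Col0 PP7 goes from a mean of 11.1 TPM at 9 D to 1.21 TPM at 15 D. At 15 D 77.5% of all loci tested were called higher in pp7l in TPM.

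Over days, PP7L rose in Col0 from 0 to 9 D. The mean went from 0.200 ± 0.0996 to 1.03 ± 0.0721 TPM (SD, n = 3 each), 5.14-fold, with no overlap (log2 change 0.76 ± 0.21, adjusted p = 0.00217, limma). After scaling the ratio of means was 1.96-fold, still with no overlap, and the change did not pass (0.33, adjusted p = 0.0859, limma). From 9 to 15 D in Col0 the mean was 9.83-fold lower in TPM and 2.54-fold lower after scaling, and the groups did not overlap on either scale. In the libraries labelled pp7l the change from 0 D passed at 9 D (log2 change 0.64 ± 0.21, adjusted p = 0.0178, limma) and at 12 D (0.55 ± 0.21, adjusted p = 0.0337, limma). Neither passed after scaling, with adjusted p-values of 0.0792 and 0.306 (limma). The change at 9 D was also lost without pp7l 0 D replicate 1 (0.54, adjusted p = 0.0912, limma) or pp7l 9 D replicate 3 (0.37, adjusted p = 0.194, limma). The change at 12 D was lost without pp7l 0 D replicate 1 or 2 or any 1 of the 3 pp7l 12 D libraries, with adjusted p from 0.0533 to 0.139 (limma). Taken jointly, the 4 later days differed from 0 D in Col0 (adjusted p = 0.00264, limma F test) and not in pp7l (adjusted p = 0.0690, limma F test). The test of the difference between those changes did not pass (adjusted p = 0.153, limma F test), so PP7L was not shown to respond differently over days in the 2 genotypes. That test passed without Col0 6 D replicate 1 (adjusted p = 0.0455, limma F test) and without pp7l 9 D replicate 3 (adjusted p = 0.0186, limma F test).

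PP7, the nuclear phosphatase of cryptochrome signalling, changed over days in Col0. Its levels in the libraries labelled pp7l ran from 6.04 to 11.9 TPM, without a call over days in the main fit. In Col0 its level was 4.38, 4.39 and 3.43 TPM at 0 D and 0.513 and 10.2 TPM in replicates 1 and 3 at 6 D. It was 11.4, 10.7 and 11.4 TPM at 9 D, 8.02, 8.31 and 5.50 TPM at 12 D, and 1.73, 1.37 and 0.538 TPM at 15 D. The 3 libraries at 9 D were the highest of Col0, and apart from replicate 1 at 6 D those at 15 D were the lowest. In pp7l its level was 6.04, 6.33 and 6.66 TPM at 0 D, 6.39, 7.16 and 6.65 TPM at 6 D, and 8.70, 8.95 and 7.09 TPM at 9 D. It was 9.46, 7.65 and 6.05 TPM at 12 D and 8.32, 9.02 and 11.9 TPM at 15 D. In TPM, PP7 was higher in pp7l than in Col0 without overlap at 0 and 15 D, lower without overlap at 9 D, and the groups overlapped at 6 and 12 D. After scaling the groups overlapped at 0 D as well.

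At 15 D the mean of PP7 was 9.75 ± 1.91 TPM in pp7l and 1.21 ± 0.611 TPM in Col0 (SD, n = 3 each), 8.04-fold apart. The log2 difference of 2.31 ± 0.39 passed (adjusted p = 6.59e-06, limma). After scaling the means were 6.05 and 3.13 scaled TPM, 1.93-fold apart, and the difference still passed (0.76 ± 0.27, adjusted p = 0.0152, limma). None of the other 4 days passed on either scale. The difference at 0 D, 0.54, passed when either Col0 6 D library was left out (adjusted p = 0.0378 without replicate 1 and 0.0373 without replicate 3, limma). It also passed with array weights (adjusted p = 0.0169, limma) and with the compared groups alone (adjusted p = 0.0172, limma). The difference at 9 D, -0.40, passed with the same alternatives (adjusted p = 0.0159 and 0.0227, limma). That at 6 D was -0.53 without Col0 6 D replicate 1 (adjusted p = 0.430, limma) and 2.35 without replicate 3 (adjusted p = 1.10e-07, limma). Averaged over days the difference was 0.69 ± 0.18 (adjusted p = 0.00141, limma), and 0.398 without Col0 6 D replicate 1, where it still passed. It was 0.27 after scaling (adjusted p = 0.0532, limma), and without the 15 D libraries it was 0.28 (adjusted p = 0.299, limma). In Col0 the change from 0 to 9 D was 2.74-fold in TPM (log2 change 1.27 ± 0.39, adjusted p = 0.00570, limma) and 1.05-fold after scaling (adjusted p = 0.855, limma). From 0 to 15 D in Col0 PP7 fell 3.35-fold in TPM and 2.22-fold after scaling. This fall passed on both scales (log2 change -1.23, adjusted p = 0.00948, and -0.95, adjusted p = 0.00283, limma). In TPM it did not pass without Col0 15 D replicate 3 (-0.99, adjusted p = 0.0584, limma). Without the libraries over 20% rRNA, which left replicate 2 as the only Col0 library at 15 D, the TPM change was -1.09. Within the ranking of nuclear loci, PP7 went from the 79.4th to 81.3rd percentile at 0 D to the 65.8th to 67.7th at 15 D in Col0. In pp7l it was at the 82.6th to 82.9th at 0 D and the 77.8th to 84.2nd at 15 D. The joint test over days passed in Col0 (adjusted p = 1.49e-05, limma F test) and not in pp7l (adjusted p = 0.751, limma F test). The difference between those changes passed in TPM (adjusted p = 0.000874, limma F test) and not after scaling (adjusted p = 0.160, limma F test). The joint test in pp7l passed with array weights (adjusted p = 0.00349, limma F test) and with the compared groups alone (adjusted p = 0.0341, limma F test). In pp7l the 9 and 15 D libraries lay above those of 0 D in TPM, and after scaling they overlapped. The 6 and 12 D libraries of pp7l overlapped those of 0 D in TPM. After scaling they lay below them, with ratios of means of 0.791 and 0.745. In Col0 the 12 D libraries lay above those of 0 D in TPM (1.79-fold) and below them after scaling (0.620-fold).

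**Figure D2:**
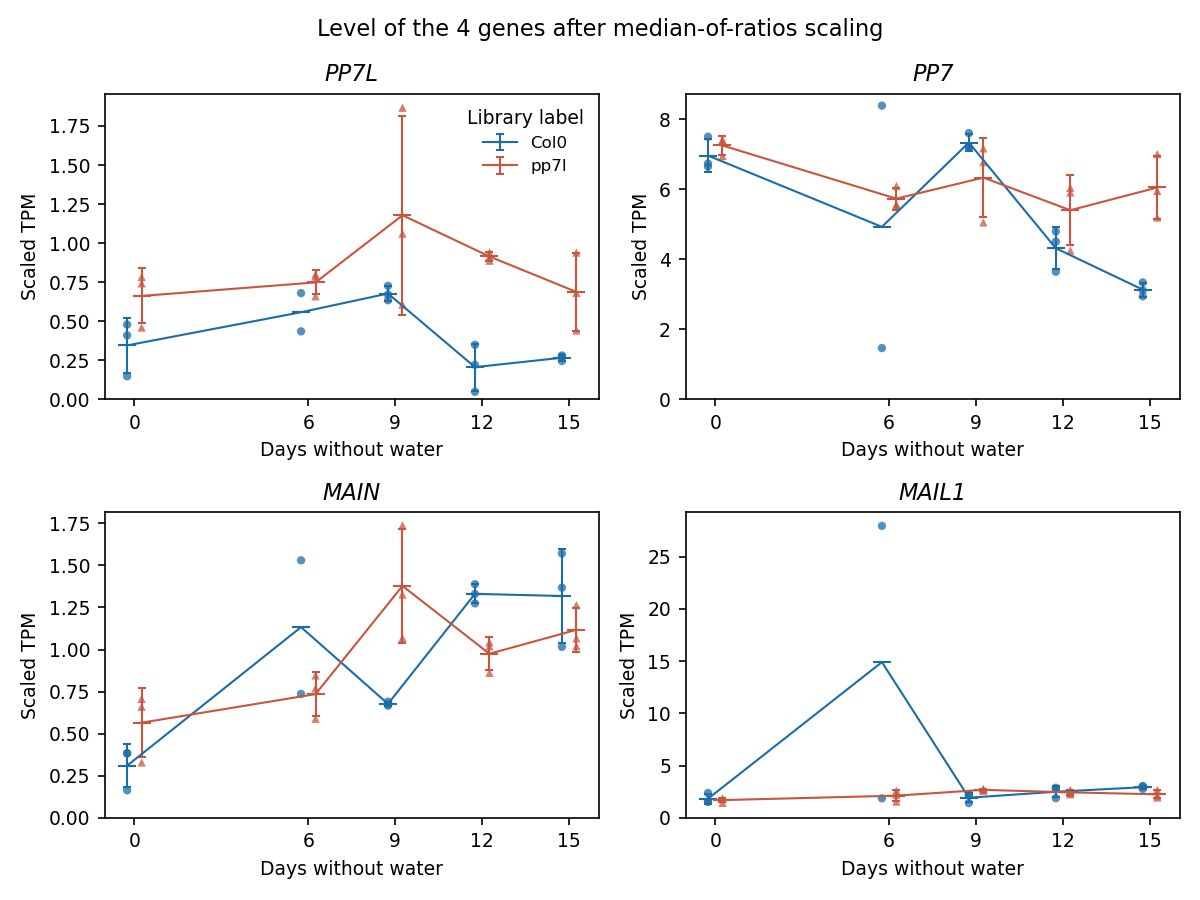
Scaled TPM, the TPM divided by each library's median-of-ratios factor (vertical axis), of the 4 genes against days without water (horizontal axis), drawn as in the plot of TPM. PP7 at 15 D has means of 6.05 in pp7l and 3.13 in Col0, MAIN in Col0 stays at 1.33 and 1.32 at 12 and 15 D, and the MAIL1 panel is stretched by 27.9 scaled TPM in Col0 at 6 D replicate 1.

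MAIN, a plant mobile domain protein needed for meristem maintenance, rose over days in both genotypes. In Col0 its level was 0.225, 0.108 and 0.195 TPM at 0 D, 0.537 and 0.893 TPM in replicates 1 and 3 at 6 D, and 1.06, 0.992 and 1.03 TPM at 9 D. It was 2.32, 2.35 and 2.01 TPM at 12 D and 0.564, 0.638 and 0.253 TPM at 15 D. In Col0 the 12 D libraries were the highest, and all later libraries lay above those of 0 D. In pp7l its level was 0.538, 0.282 and 0.678 TPM at 0 D, 0.680, 0.995 and 0.921 TPM at 6 D, and 1.37, 1.66 and 2.44 TPM at 9 D. It was 1.35, 1.32 and 1.49 TPM at 12 D and 2.03, 1.55 and 1.82 TPM at 15 D. In pp7l the 9, 12 and 15 D libraries all lay above those of 0 and 6 D.

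From 0 to 12 D in Col0, MAIN went from 0.176 ± 0.0606 to 2.23 ± 0.190 TPM (SD, n = 3 each), 12.7-fold, and 4.29-fold after scaling. The log2 change was 1.46 ± 0.16 in TPM (adjusted p = 5.96e-09, limma) and 0.84 after scaling (adjusted p = 9.18e-06, limma). At 15 D in Col0 its TPM was 2.76-fold that of 0 D, a change that did not pass (adjusted p = 0.0839, limma). After scaling it was 4.25-fold, close to the 12 D ratio, and passed (0.82, adjusted p = 1.04e-05, limma). The change at 6 D in Col0 passed on both scales (0.54 and 0.68, adjusted p = 0.0256 and 0.000700, limma). In TPM it was lost without Col0 0 D replicate 2 or 3 or Col0 6 D replicate 3 (adjusted p = 0.0719, 0.0542 and 0.144, limma). It was lost also with array weights (adjusted p = 1, limma) and with the compared groups alone (adjusted p = 0.257, limma). The change at 9 D in Col0 passed on both scales (0.79 and 0.36, adjusted p = 0.000108 and 0.0311, limma). In pp7l the changes from 0 D passed on both scales at 9 D (0.90 and 0.60), 12 D (0.68 and 0.34) and 15 D (0.90 and 0.44), with adjusted p-values up to 0.00124 in TPM and 0.0479 after scaling (limma). Their ratios of means were 3.65, 2.78 and 3.60-fold in TPM and 2.44, 1.72 and 1.98-fold after scaling.

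The size of that rise in MAIN differed between the genotypes. At 12 D the change from 0 D was 0.78 ± 0.22 smaller in pp7l on the log2 scale (-0.78, adjusted p = 0.00701, limma), and 0.49 smaller after scaling (-0.49, adjusted p = 0.0408, limma). It passed in every one of the 29 fits that left out 1 library. The joint test of the difference over days gave adjusted p = 0.000132 in TPM and 0.00420 after scaling (limma F test). At 15 D the change was 0.58 larger in pp7l in TPM (adjusted p = 0.0316, limma). It was -0.38 after scaling and did not pass (adjusted p = 0.107, limma). The TPM call was lost without Col0 0 D replicate 1 or 3, Col0 15 D replicate 3, pp7l 0 D replicate 2, or pp7l 15 D replicate 1 or 3, with adjusted p from 0.0511 to 0.0991 (limma). Between genotypes at 0 D, MAIN did not pass (0.34, adjusted p = 0.125, limma). It passed with a pseudocount of 0.1 (adjusted p = 0.0223), TPM over nuclear loci without rRNA (0.0341) and the compared groups alone (0.0491, limma). Between genotypes at 9 D, MAIN was 1.77-fold higher in pp7l in TPM and 2.04-fold after scaling, with no overlap. This difference had an adjusted p of 0.0491 in TPM and 0.0105 after scaling (limma), and in TPM 24 of the 29 fits without 1 library put it over 0.05, the highest 0.288 without pp7l 9 D replicate 3. With a replicate block its adjusted p was 0.0623 (limma). At 12 D MAIN was lower in pp7l, 1.61-fold in TPM (-0.44 ± 0.16, adjusted p = 0.0274, limma) and 1.37-fold after scaling (adjusted p = 0.155, limma). This call was lost without Col0 12 D replicate 1 or 2 or pp7l 12 D replicate 1 or 2, with adjusted p from 0.0659 to 0.0814 (limma). It was lost also with a pseudocount of 0.1 (adjusted p = 0.146, limma) and with TPM over nuclear loci without rRNA (adjusted p = 0.553, limma). At 15 D the means were 1.80 ± 0.240 TPM in pp7l and 0.485 ± 0.204 TPM in Col0 (SD, n = 3 each; log2 difference 0.92, adjusted p = 8.56e-06, limma). After scaling the groups overlapped, and the difference was -0.13 (adjusted p = 0.436, limma). Averaged over days the difference of 0.28 ± 0.07 passed in TPM (adjusted p = 0.00127, limma), and it was 0.02 after scaling (adjusted p = 0.782, limma). Without the 15 D libraries that TPM average was 0.12 (adjusted p = 0.196, limma).

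MAIL1, the homologue of MAIN, was called higher than at 0 D on several days in TPM, and at 9, 12 and 15 D none of these calls remained after scaling. In Col0 its level was 0.907, 1.03 and 1.21 TPM at 0 D, and 9.80 and 2.27 TPM in replicates 1 and 3 at 6 D. It was 3.50, 2.10 and 3.21 TPM at 9 D, 4.56, 3.46 and 4.35 TPM at 12 D, and 1.67, 1.29 and 0.488 TPM at 15 D. Replicate 1 at 6 D held the highest MAIL1 level of all 29 libraries, in the library with the largest plastid share. In pp7l its level was 1.17, 1.54 and 1.78 TPM at 0 D, 1.80, 2.60 and 3.11 TPM at 6 D, and 3.56, 3.31 and 3.67 TPM at 9 D. It was 4.19, 3.08 and 3.21 TPM at 12 D and 3.12, 3.24 and 4.53 TPM at 15 D. In pp7l every later library lay above those of 0 D. After scaling this still held at 9, 12 and 15 D in pp7l, and at 6 D the groups overlapped.

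In Col0 the change in MAIL1 from 0 D passed at 9 D (2.80-fold, log2 change 0.93 ± 0.28, adjusted p = 0.00552, limma) and at 12 D (3.93-fold, 1.32 ± 0.28, adjusted p = 0.000158, limma). After scaling these ratios were 1.05 and 1.36-fold, and neither passed (adjusted p = 0.936 and 0.535, limma). At 15 D the ratio was 1.10-fold in TPM, with overlap, and 1.60-fold after scaling, with no overlap, and neither passed. At 6 D the change of 1.54 passed (adjusted p = 0.000927, limma), and it was 0.68 without Col0 6 D replicate 1 (adjusted p = 0.0501, limma) and 2.40 without replicate 3. It was lost also with array weights (adjusted p = 1, limma) and with the compared groups alone (adjusted p = 0.359, limma). In pp7l the changes at 9, 12 and 15 D were 0.86, 0.85 and 0.89 on the log2 scale, with adjusted p-values of 0.0208, 0.0174 and 0.0103 (limma). After scaling the ratios of means were 1.58, 1.44 and 1.33-fold, and the standard error was 0.43 against 0.28 in TPM. The spread is estimated over all groups together, and Col0 at 6 D held 27.9 and 1.87 scaled TPM in replicates 1 and 3. The smallest adjusted p-value of these 3 changes was 0.445 after scaling (limma). They were also lost without single libraries: at 9 D without pp7l 0 D replicate 1 or pp7l 9 D replicate 1 or 3, at 12 D without pp7l 0 D replicate 1 or pp7l 12 D replicate 1, and at 15 D without pp7l 15 D replicate 3. The adjusted p-values in those fits ran from 0.0525 to 0.0873 (limma). The joint test over days in pp7l passed in TPM (adjusted p = 0.0383, limma F test) and not with a pseudocount of 0.1 or without a filter (adjusted p = 0.0645 and 0.0709, limma F test). It was lost without any 1 of the pp7l 0 D libraries, pp7l 9 D replicate 1 or 3, pp7l 12 D replicate 1 or pp7l 15 D replicate 3, with adjusted p from 0.0544 to 0.177 (limma F test). Between genotypes the average difference was 0.13 ± 0.13 (adjusted p = 0.369, limma), with a 95% interval from -0.14 to 0.40, and -0.31 after scaling (adjusted p = 0.163, limma). Without Col0 6 D replicate 1 the average was 0.31 and passed (adjusted p = 0.00718, limma). At 6 D the difference was -0.78 (adjusted p = 0.0619, limma) and -1.56 after scaling, where it passed (adjusted p = 0.0149, limma). In TPM it was 0.08 without Col0 6 D replicate 1 (adjusted p = 0.958, limma) and -1.64 without replicate 3 (adjusted p = 1.35e-05, limma), and it passed without Col0 15 D replicate 3 (adjusted p = 0.0449, limma). At 15 D MAIL1 was 3.16-fold higher in pp7l in TPM (1.14 ± 0.28, adjusted p = 0.000675, limma). After scaling it was 1.30-fold lower in pp7l, with no overlap, and did not pass (-0.28, adjusted p = 0.580, limma). The joint test of the difference between genotypes over days passed in TPM (adjusted p = 0.00280, limma F test) and not after scaling (adjusted p = 0.0871, limma F test).

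**Figure D3:**
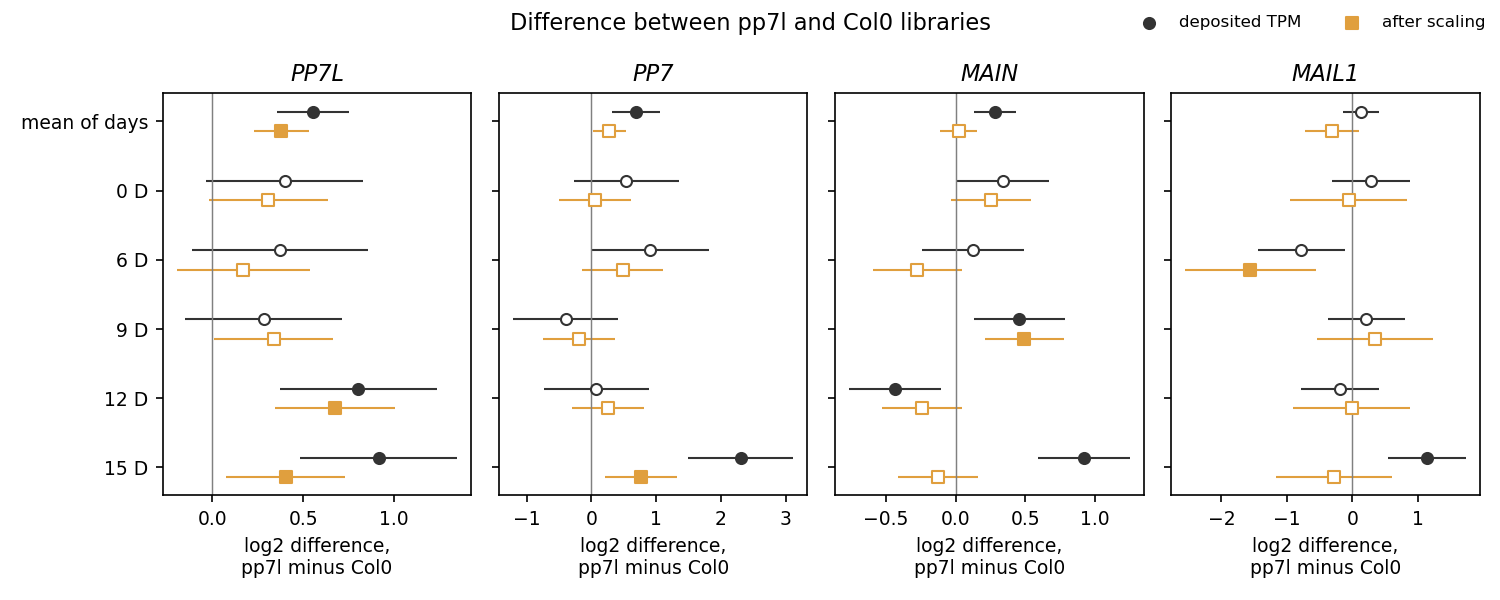
Difference between pp7l and Col0 libraries in log2(TPM + 1) (horizontal axis; positive values are higher in pp7l) for each of the 4 genes, averaged over days and at each day (vertical axis). Circles are from deposited TPM and squares from scaled TPM, bars are 95% intervals from limma, and filled symbols have an adjusted p under 0.05. PP7L passes on both scales for the average and at 12 and 15 D, while the 15 D differences of MAIN and MAIL1, 0.92 and 1.14 in TPM, change sign after scaling.

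Counted over the 4 genes, 3 were called higher in pp7l for the average over days, PP7L, PP7 and MAIN, and after scaling PP7L alone. Of all loci tested, 57.0% were called higher and 11.1% lower in this comparison, and after scaling 30.7% and 33.6%. The median change over all loci was 0.35 in TPM and -0.01 after scaling. None of the 4 genes was called at 0 D on either scale, where 20.2% of all loci were called, and 35.2% after scaling. At 6 D none was called in TPM, where 28.8% of loci were, and after scaling MAIL1 was called lower, with 36.2% of loci called. At 9 D MAIN alone was called, higher in pp7l, on both scales. There 3.05% of loci were called higher and 11.6% lower, and after scaling 8.91% and 13.1%. At 12 D PP7L was called higher and MAIN lower, and after scaling PP7L alone. The shares over all loci were 17.2% higher and 25.4% lower, and after scaling 24.2% and 24.7%. At 15 D all 4 genes were called higher in pp7l, as were 77.5% of all loci, with 4.46% lower. After scaling PP7L and PP7 were called higher, against 30.9% higher and 32.8% lower over all loci.

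Over days in Col0, MAIN and MAIL1 were called higher at 6 D. Of all loci 16.0% were called higher and 9.34% lower there, and after scaling 25.3% and 28.3%, with PP7 then called lower beside MAIN and MAIL1 higher. All 4 genes were called higher at 9 D, as were 64.8% of loci, with 2.88% lower. After scaling MAIN alone was called at 9 D, against 26.2% higher and 25.1% lower. At 12 D MAIN and MAIL1 were called higher, with 61.9% of loci higher and 11.9% lower. After scaling MAIN alone was called at 12 D, against 35.1% higher and 34.6% lower. At 15 D PP7 was called lower, with 34.7% of loci lower and 16.7% higher. After scaling PP7 was called lower and MAIN higher, against 34.0% lower and 37.8% higher. In pp7l none of the 4 genes was called at 6 D on either scale, where 21.4% of loci were, and 31.9% after scaling. At 9 D in pp7l PP7L, MAIN and MAIL1 were called higher, as were 27.7% of loci, with 5.06% lower, and after scaling MAIN alone, against 16.7% and 20.4%. The same 3 genes were called at 12 D in pp7l, with 37.8% of loci higher and 6.31% lower, and after scaling MAIN alone, against 19.5% and 22.0%. At 15 D in pp7l MAIN and MAIL1 were called higher, with 49.3% of loci higher and 5.7% lower, and after scaling MAIN alone, against 21.8% and 22.8%.

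The joint test over days called 4 of the 4 genes in Col0, where 96.8% of loci were called, and 92.1% after scaling. In pp7l it called MAIN and MAIL1, with 46.2% of loci called, and MAIN alone after scaling, with 45.6%. The joint test of the difference between genotypes called PP7, MAIN and MAIL1, with 91.4% of loci called, and MAIN alone after scaling, with 74.3%. For the single days of that difference, MAIN was called lower at 12 D, as were 32.6% of loci, with 9.02% higher, and after scaling 23.5% and 22.7%. PP7 and MAIN were called higher at 15 D, as were 51.0% of loci, with 3.39% lower. After scaling neither was called, against 23.5% higher and 27.4% lower.

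Ratios between the genes within a library do not depend on its total, and they changed with days in Col0. The ratio of PP7 to MAIL1 had medians of 4.28, 3.53, 1.76 and 1.07 in Col0 at 0, 9, 12 and 15 D. In pp7l its medians were 4.10, 2.44, 2.26 and 2.66 at the same days. At 15 D the Col0 libraries lay from 1.04 to 1.10 and the pp7l libraries from 2.63 to 2.78, so PP7 and MAIL1 had nearly equal levels in Col0 and not in pp7l. At 6 D in Col0 the ratio was 0.0524 in replicate 1 and 4.49 in replicate 3, while the pp7l libraries ran from 2.14 to 3.54. The ratio of MAIN to PP7L had medians of 0.798, 1.01, 6.02 and 5.58 in Col0 at 0, 9, 12 and 15 D. In pp7l its medians stayed between 0.952 and 1.50 over the 5 days. At 12 D the Col0 libraries ran from 3.97 to 26.3 and the pp7l libraries from 0.942 to 1.18. At 15 D they ran from 3.62 to 5.76 and from 1.13 to 2.86. The groups overlapped at 0, 6 and 9 D. The ratio of MAIL1 to MAIN had medians of 6.23 and 2.02 in Col0 at 0 and 15 D, and of 2.62 and 2.10 in pp7l. These ratios are a description without a test, and those with PP7L or MAIN rest on levels under 1 TPM in many libraries.

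**Figure D4:**
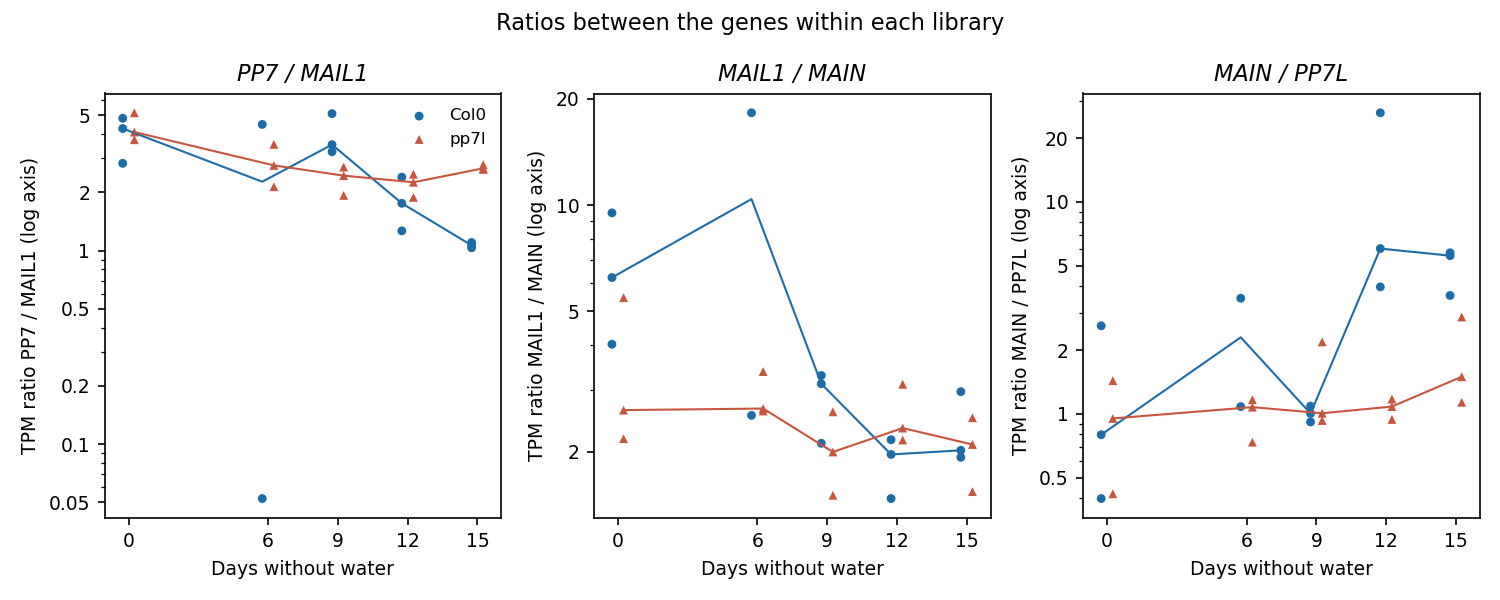
Ratio of the TPM of PP7 to MAIL1, MAIL1 to MAIN and MAIN to PP7L within each library (vertical log axes) against days without water (horizontal axis); circles are Col0 libraries, triangles pp7l libraries, and lines join group medians. In Col0 PP7 over MAIL1 reaches 1.07 at 15 D and MAIN over PP7L 6.02 at 12 D, while the pp7l medians at 15 D are 2.66 and 1.50.

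Across the 29 libraries the levels of the 4 genes correlated positively in TPM, with Spearman's rho from 0.477 for PP7L with MAIL1 to 0.778 for MAIN with MAIL1. The median rho with all loci tested was 0.460 for PP7L, 0.567 for PP7, 0.591 for MAIN and 0.467 for MAIL1. PP7L with MAIL1 (0.477) or MAIN (0.518), and PP7 with MAIL1 (0.496) or MAIN (0.604), lay near these medians. After scaling MAIN and MAIL1 still moved together (0.736), whereas PP7 had a rho of -0.676 with MAIN and -0.624 with MAIL1. PP7L with PP7 went from 0.710 to 0.277. The libraries of a group share day and genotype, and in TPM they also share the total of their library, so these values are given without a p. The 3 loci most like PP7L in TPM over the 29 libraries were AT5G60710 (rho 0.937), MOL1 (AT5G51350, a receptor-like kinase, 0.936) and AT2G44830 (0.935). Those most like PP7 were AXS1 (AT2G27860, a UDP-apiose synthase, 0.946), PTP1 (AT1G71860, a tyrosine phosphatase, 0.942) and AT2G23070 (0.938). For MAIN they were AT2G19390 (0.974), ASG3 (AT2G44980, 0.972) and SAR1 (AT1G33410, a nucleoporin, 0.971). For MAIL1 they were AT3G02650 (0.929), AT4G17020 (0.924) and AT2G15695 (0.922). Such likeness was common for MAIN, for which 4163 loci had a rho of at least 0.8, and less so for PP7 with 1310, PP7L with 1248 and MAIL1 with 375.

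MAIL2 (AT2G04865) and MAIL3 (AT1G48120), the relatives, had medians of 1.87 and 1.23 TPM over the 29 libraries. In Col0 MAIL2 was 0.359, 0.414 and 0.710 TPM at 0 D and 3.26, 4.21 and 4.94 TPM at 12 D, 8.37-fold in TPM and 2.85-fold after scaling. In pp7l it was 0.525, 0.920 and 1.20 TPM at 0 D and 2.06, 1.79 and 2.27 TPM at 12 D, 2.31-fold and 1.45-fold. The Col0 rise was thus the larger for MAIL2, as for MAIN. The change from 0 to 12 D in MAIL2 was 1.07 smaller in pp7l on the log2 scale (-1.07 ± 0.27, adjusted p = 0.00295, limma), and -0.61 after scaling (adjusted p = 0.0434, limma). With TPM over nuclear loci without rRNA it was -0.96 and did not pass (adjusted p = 0.0538, limma). MAIL3 in Col0 was 0.300, 0.230 and 0.231 TPM at 0 D and 2.16, 2.71 and 2.03 TPM at 12 D, 9.08-fold and 3.12-fold after scaling. In pp7l it was 0.836, 0.570 and 1.23 TPM at 0 D and 1.11, 1.12 and 1.54 TPM at 12 D, 1.43-fold and 0.890-fold. Its change to 12 D was smaller in pp7l by 1.12 (-1.12 ± 0.25, adjusted p = 0.000919, limma) and by 0.80 after scaling (-0.80, adjusted p = 0.0128, limma). At 9 D the difference for MAIL3 was -0.84 in TPM (adjusted p = 0.0231, limma) and did not pass after scaling (-0.58, adjusted p = 0.131, limma). It was also lost without Col0 0 D replicate 3, Col0 9 D replicate 1, pp7l 0 D replicate 3, or pp7l 9 D replicate 1 or 2, with adjusted p up to 0.0834 (limma). Averaged over days neither relative differed between genotypes in TPM (0.08 and 0.12, adjusted p = 0.445 and 0.192, limma). After scaling MAIL2 was lower in pp7l (-0.29 ± 0.08, adjusted p = 0.00226, limma) and MAIL3 did not pass (-0.15, adjusted p = 0.103, limma). On single days MAIL3 was called higher in pp7l at 0 D (0.57, adjusted p = 0.0236, and 0.46 after scaling, adjusted p = 0.0490, limma). This TPM call was lost without any 1 of the Col0 0 D libraries or pp7l 0 D replicate 1 or 3. At 12 D both relatives were called lower in pp7l in TPM, MAIL2 at -0.75 (adjusted p = 0.00269, limma) and MAIL3 at -0.55 (adjusted p = 0.0130, limma). After scaling MAIL2 still passed (-0.51, adjusted p = 0.0162, limma) and MAIL3 did not (-0.34, adjusted p = 0.127, limma). The TPM call of MAIL3 was lost without Col0 12 D replicate 2 (adjusted p = 0.0706, limma) and with a pseudocount of 0.1 (adjusted p = 0.0677, limma). With TPM over nuclear loci without rRNA neither relative passed at 12 D (adjusted p = 0.157 for MAIL2 and 0.350 for MAIL3, limma). At 15 D both were called higher in pp7l in TPM, MAIL2 at 0.49 (adjusted p = 0.0229, limma) and MAIL3 at 0.89 (adjusted p = 5.39e-05, limma). After scaling MAIL2 was called lower (-0.94, adjusted p = 4.52e-05, limma), and MAIL3 was -0.18 and did not pass (adjusted p = 0.391, limma). The TPM call of MAIL2 was lost without Col0 15 D replicate 3 or pp7l 15 D replicate 1 or 3, with adjusted p from 0.0503 to 0.201 (limma). At 12 D MAIN, MAIL2 and MAIL3 had each a lower level in every pp7l library than in any Col0 library, on both scales. The share of all loci with such a separation was not counted. Of all loci tested, 25.4% were called lower in pp7l at 12 D in TPM and 24.7% after scaling.

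**Figure D5:**
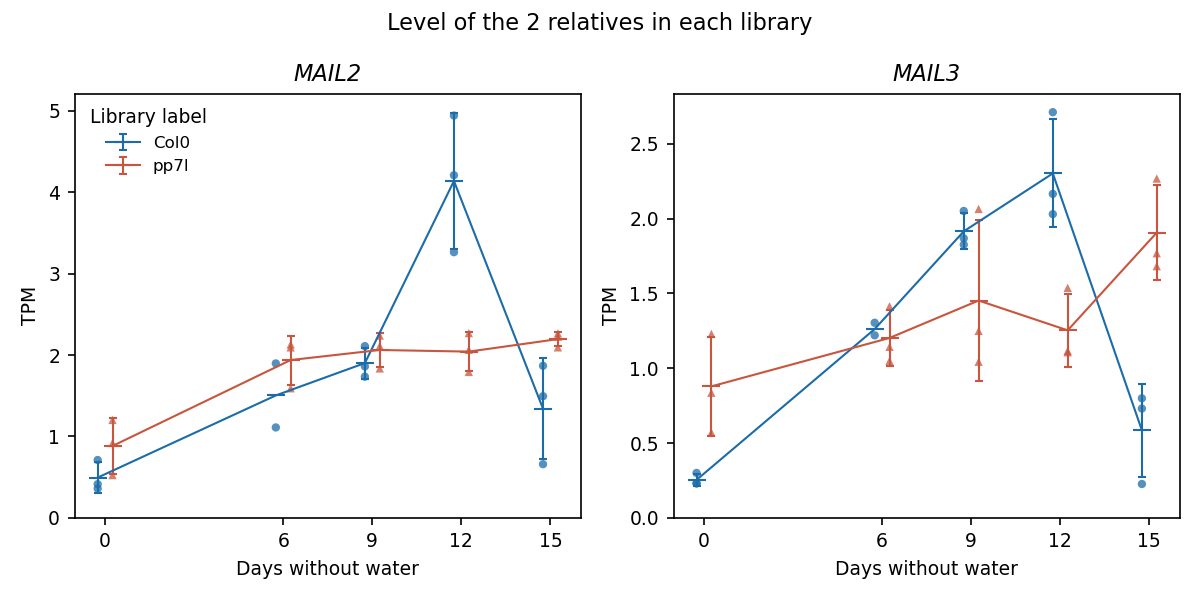
TPM (vertical axis) of MAIL2 and MAIL3 in each library against days without water (horizontal axis); circles are Col0 libraries and triangles pp7l libraries, lines join group means and bars give the SD where a group has 3 libraries. At 12 D the Col0 libraries of MAIL2 lie from 3.26 to 4.94 TPM and the pp7l libraries from 1.79 to 2.27 TPM.

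The other phosphoprotein phosphatases were compared with PP7 and PP7L through a list of 23 catalytic subunits, of which 22 were tested. For the average over days, 8 were called higher and 3 lower in pp7l, with a median log2 difference of 0.10 beside 0.35 over all loci, of which 57.0% were called higher and 11.1% lower. After scaling 1 was called higher and 14 lower, with a median of -0.40 beside -0.01 and 30.7% of all loci called higher and 33.6% lower. The largest differences belonged to TOPP1 (AT2G29400, a type one protein phosphatase), at 1.00 ± 0.17 (adjusted p = 1.02e-05, limma), and to PP5.2 (AT2G42810), at 0.66 ± 0.17 (adjusted p = 0.000980, limma). The smallest belonged to TOPP6 (AT5G43380), at -0.60 ± 0.14 (adjusted p = 0.000571, limma), and to TOPP9 (AT3G05580), at -0.57 ± 0.12 (adjusted p = 0.000152, limma). TOPP1, TOPP6 and TOPP9 kept their call and direction after scaling (0.457, -0.998 and -1.06), and PP5.2 did not pass (0.20, adjusted p = 0.0509, limma). Without Col0 6 D replicate 1, PP5.2 was 0.41 and still passed. Over days in pp7l, 2 of the 22 were called in the joint test, beside 46.2% of all loci, and 22 of the 22 in Col0, beside 96.8%. PP7 and PP7L also had no call in this joint test in pp7l, although PP7L was called against 0 D at 9 and 12 D in TPM.

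The pathway of transposon silencing, in which MAIN, MAIL1 and PP7L are known to act, was described by a list of 17 genes, of which 16 were analysed here and 13 tested. For the average over days 12 were called higher and 1 lower in pp7l, with a median log2 difference of 0.45 beside 0.35 over all loci, of which 57.0% were higher and 11.1% lower. After scaling 10 were called higher and 1 lower, with a median of 0.28 beside -0.01, and shares over all loci of 30.7% and 33.6%. The largest differences were those of AGO4 (AT2G27040), the argonaute of RNA-directed DNA methylation, at 0.91 ± 0.12 (adjusted p = 5.93e-07, limma), and of CMT2 (AT4G19020), a DNA methyltransferase, at 0.78 ± 0.09 (adjusted p = 1.85e-08, limma). After scaling they were 0.50 and 0.55, and both passed. The smallest were those of CRT1 (AT4G36290), a MORC ATPase, at -0.39 ± 0.08 (adjusted p = 0.000125, limma), and of CMT3 (AT1G69770), a further DNA methyltransferase, at 0.29 ± 0.09 (adjusted p = 0.00695, limma). After scaling CRT1 was -0.63 and passed, and CMT3 was 0.09 and did not (adjusted p = 0.216, limma). Without Col0 6 D replicate 1, CMT3 was 0.18 (adjusted p = 0.0388, limma).

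Marker genes of other tissues moved over the same days. The summed level of 6 meristem and cell division markers in Col0 was 4.79 to 5.23 TPM at 0 D, 23.4 to 31.7 TPM at 9 D, 7.59 to 8.99 TPM at 12 D and 0.930 to 2.82 TPM at 15 D. In pp7l it stayed between 5.86 and 15.0 TPM over all days. After scaling this sum in Col0 was 7.48 to 9.42 at the start and 15.7 to 20.1 after 9 days. It was 4.54 to 5.95 after 12 days and 5.08 to 5.96 after 15 in Col0, below the start on both days. In pp7l it ran from 9.10 to 10.4 at the start and from 4.52 to 5.77 after 12 days. The stem cell genes WUS or CLV3 were at 0 in whole groups: CLV3 in Col0 at 6, 9 and 12 D, WUS in Col0 at 0 and 15 D, CLV3 in pp7l on all 5 days, and WUS in pp7l from 0 to 12 D. The summed level of 5 floral organ genes in Col0 was 0.876 to 1.22 TPM at 0 D, 30.3 to 37.5 TPM at 9 D, 16.8 to 19.8 TPM at 12 D and 0.861 to 4.31 TPM at 15 D. In pp7l it was 0.279 to 0.477 TPM at 0 D, with AP1 and AP3 at 0, and 2.61 to 11.5 TPM at 15 D. After scaling the floral sum in Col0 was 1.50 to 2.40 at 0 D and 5.34 to 7.77 at 15 D, with no overlap, and in pp7l 0.326 to 0.585 and 1.63 to 6.77. The summed level of the 2 leaf markers, CAB3 and RBCS3B, was 3881 to 5167 TPM in Col0 at 0 D and 4.16 to 16.6 TPM at 15 D. In pp7l it was 3907 to 4062 TPM at 0 D and 648 to 708 TPM at 15 D. After scaling the leaf sum went from between 7623 and 8653 to between 25.8 and 35.5 in Col0, and from between 4075 and 4983 to between 404 and 442 in pp7l. In TPM the highest mean levels of PP7L and PP7 in Col0 and the highest floral and meristem sums were all at 9 D. Those of MAIN and MAIL1 were not. MAIN had means of 1.03 TPM at 9 D and 2.23 TPM at 12 D in Col0, and MAIL1 had 2.94 and 4.12 TPM. The highest Col0 mean of MAIL1 was 6.03 TPM at 6 D, with 9.80 TPM in replicate 1 and 2.27 TPM in replicate 3. After scaling PP7 at 9 D overlapped its 0 D level. The part of these tissues in the levels of the 4 genes was not tested.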

How the data were processed

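RNA from whole plants was sequenced, and the authors deposited 1 table of TPM per gene for 33681 loci and 29 libraries. The submitters' processing notes name Trimmomatic, FastQC, Salmon and the TAIR10 annotation, with versions not given in the sources used here. No replicates were pooled in the table, and the growth protocol and groups were read from the labels. TPM values are not counts, so no count model was run and no depth or counting interval is given.

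Loci with at least 1 TPM in at least 3 libraries (18757) were fitted with limma 3.58.1 in R 4.3.3 on log2(TPM + 1), as 1 model of 10 group means with an intensity trend. P-values were adjusted over all loci tested by the Benjamini-Hochberg method. The same fit on TPM scaled by median of ratios used the same loci. PP7L, the gene of the mutant, was also tested by an exact two-sided permutation of genotypes within days. The code was tested on simulated data.

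The 4 genes, the relatives, the 2 lists and the markers were chosen with earlier results of these data known. Named from each list were the 2 largest and the 2 smallest average genotype differences, and for each of the 4 genes the 3 loci with the highest Spearman correlation. Names came from the RefSeq annotation, in which 32954 of the loci were found.

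Replicate numbers recur between groups. Of 37 same-numbered pairs in 13 comparisons, 4 had a correlation of deviations over 0.1 (range -0.11 to 0.26), and in 1 comparison, pp7l against Col0 at 15 D, all 3 pairs did. The main fit therefore has no block. Alternatives were a pseudocount of 0.1, no filter and a stricter one (10 libraries), both scalings, a replicate block, array weights, the compared groups alone, and fits without single libraries, without Col0 at 6 D or without libraries over 20% rRNA. Averages without 6 D or 15 D were added after the data were seen.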

Additional observations from a re-analysis of the deposited data

Results flagged for a closer look

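Changes from 0 D that differed between pp7l and Col0 were looked at again, since the test of that difference itself passed in TPM (limma, adjusted p under 0.05). Each value is the log2 change in pp7l minus that in Col0. For MAIN it was -0.78 at 12 D and 0.58 at 15 D, for PP7 1.77 at 15 D, for MAIL2 -1.07 at 12 D, and for MAIL3 -0.84 at 9 D and -1.12 at 12 D. After scaling by median of ratios, the 12 D values of MAIN, MAIL2 and MAIL3 still passed. The 15 D values of PP7 and MAIN and the 9 D value of MAIL3 did not, and that of MAIN changed sign to -0.38. The joint test over the 4 later days passed for PP7 (adjusted p = 0.000874), MAIN (0.000132), MAIL1 (0.00280), MAIL2 (0.00167) and MAIL3 (5.15e-05). After scaling it passed for MAIN, MAIL2 and MAIL3 and not for PP7 or MAIL1. With TPM over nuclear loci without rRNA, some of the single-day values did not pass. They were those of MAIL2 at 12 D, MAIN at 15 D and MAIL3 at 9 D (adjusted p = 0.0538, 0.0521 and 0.0533, limma). Without the libraries over 20% rRNA, the 15 D values were 1.62 for PP7 (adjusted p = 0.0702, limma) and 0.42 for MAIN (adjusted p = 0.171, limma).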

How the results depend on the processing

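The genotype difference of PP7L kept its direction and its call in every alternative run but the stricter filter, which leaves PP7L out, with adjusted p from 1.27e-06 to 0.0228 (limma), and the exact test gave at most 0.000725, without 15 D. The cause of the changes given here was not tested. With median-of-ratios scaling the average genotype difference was 0.27 for PP7 and 0.0212 for MAIN, which then did not pass, and it turned to -0.31 for MAIL1, -0.29 for MAIL2 and -0.15 for MAIL3. It also turned to -0.0592 for MAIL1 at 0 D, -0.28 for MAIN at 6 D, and at 15 D to -0.13 for MAIN, -0.28 for MAIL1, -0.94 for MAIL2 and -0.18 for MAIL3, and the 15 D difference in change of MAIN to -0.38. The joint tests then gave adjusted p = 0.920 for MAIL1 in pp7l, and for the difference between genotypes 0.160 for PP7 and 0.0871 for MAIL1. With TPM taken over nuclear loci without rRNA, the difference at 6 D was -0.33 for MAIN and at 12 D 0.18 for MAIL1, and the joint tests gave 0.353 for MAIL1 in pp7l and 0.0372 for the genotype difference of PP7L. That total still held AT1G15405, which took 14.3%, 46.0% and 16.9% of all TPM in the Col0 libraries at 15 D. All nuclear loci without rRNA took 32.4%, 64.4% and 24.5% in the same libraries. With array weights the average for MAIN was 0.24 and did not pass, PP7 at 12 D was -0.13, and the joint tests gave 0.00306 for PP7L and 0.00349 for PP7 in pp7l and 0.0196 for the difference of PP7L. The joint test in pp7l gave 0.0645 for MAIL1 with a pseudocount of 0.1 and 0.0709 without a filter, 0.0341 for PP7 with the compared groups alone, and 0.0324 for PP7L without both Col0 6 D libraries. Without libraries over 20% rRNA, PP7 at 12 D was -0.0901. The average without 6 D was 0.36 for MAIL1 and passed, and without 15 D it was 0.28 for PP7 and 0.12 for MAIN, not passing, and -0.12 for MAIL1, -0.0250 for MAIL2 and -0.0736 for MAIL3. Leaving out 1 library at a time gave averages from -0.0401 to 0.305 for MAIL1, differences at 6 D from -0.53 to 2.35 for PP7, -0.0254 to 0.276 for MAIN and -1.64 to 0.0833 for MAIL1, and at 12 D from -0.0901 to 0.219 for PP7. The joint tests in pp7l then ran from 0.0110 to 0.245 for PP7L and from 0.000975 to 0.177 for MAIL1, and that of the genotype difference from 0.0186 to 0.286 for PP7L.

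With a replicate block, which was run although the numbers paired the samples only at 15 D, MAIN at 9 D had an adjusted p of 0.0623 (limma) and the joint test of MAIL3 in pp7l 0.0581, and no other call given here changed. Counts of called loci moved by over 1.5 times in several comparisons: at 6 D between genotypes from 5407 to 727 without Col0 6 D replicate 1, to 13033 without replicate 3 and to 0 with array weights; at 0 D from 3794 to between 1369 and 7634; at 9 D from 2746 to as many as 9739; and from 0 to 6 D in Col0 from 4754 to between 0 and 10048. In pp7l the count at 6 D was 2205 without pp7l 0 D replicate 1 and that at 9 D 3982 without pp7l 9 D replicate 3, and array weights raised the counts from 4010 to 11512 at 6 D, from 6139 to 12549 at 9 D, from 8277 to 13662 at 12 D, and from 8658 to 16330 in the joint test. At 12 D between genotypes they raised 7979 to 12225, and the average without 15 D lowered 12767 to 7865. Levels under 1 TPM, and the unknown depth, limit PP7L and MAIN most.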
